A study of Arabidopsis thaliana with 121 samples.

Results

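Transcript levels of 55 cytosolic ribosomal protein genes of Arabidopsis thaliana are described here across all genotypes and libraries of the series. The genes were chosen by name, as a list of loci. No measured value enters the rule, but the list was drawn up with earlier results of these data known. They are 55 of the 68157 loci counted in the first batch of libraries (batch A) and of the 68159 loci counted in the second (batch B). The list holds 8 genes of the stalk of the large (60S) subunit, 28 other genes of the 60S subunit and 19 genes of the small (40S) subunit, in 27 families of paralogues.

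The study asked how CDCA7α and CDCA7β, 2 related zinc finger proteins that act with the chromatin remodeller DDM1, shape DNA methylation in the CG context, and the libraries are 3′-tag mRNA-seq of rosette leaves. Batch A holds 39 libraries of 16 genotypes, each from a pool of 3 plants aged 31 days. It holds cdca7α-1 (3 libraries, a T-DNA insertion in the promoter), cdca7α-2 (2, a T-DNA insertion in the coding sequence), cdca7β-1 (3) and cdca7β-2 (2), which are CRISPR lines, the double mutants cdca7α cdca7β-1 (2, the cdca7α-2 insertion with a CRISPR deletion in CDCA7β) and cdca7α cdca7β-2 (2, CRISPR in both genes), ddm1 in the first (G1, 2 libraries), the second (G2, 2) and the fifth (G5, 3) homozygous generation, the combinations of ddm1 with cdca7α-1, cdca7α-2 (G1), cdca7β-1, cdca7β-2, cdca7α cdca7β-1 and cdca7α cdca7β-2 (2 or 3 each), of which the last 4 were made by CRISPR in ddm1 plants and were in the sixth homozygous ddm1 generation, and WT Col-0 (3). The combination with cdca7α-1 was in the second. Despite their names, the 4 CRISPR combinations carry mutations of their own and not those of the same-numbered lines without ddm1. Thus ddm1 with cdca7α cdca7β-1 has CRISPR mutations in both CDCA7 genes and no T-DNA insertion there. In the labels α and β are written a and b and cdca7α-2 becomes cdca7a_2, ddm1 G1 is F2_ddm1 and the later generations are ddm1_2_G2 and ddm1_2_G5. Batch B holds 82 libraries of 17 genotypes, each from 1 leaf of a single plant aged 28 days. It holds cdca7α-2 (3) and cdca7β-1 (6), the same lines as in batch A, cdca7α cdca7β-3 (4), a sister line of cdca7α cdca7β-1 with another deletion in CDCA7β, first-generation transformants of cdca7α cdca7β-3 or of cdca7α-2, and WT (5). The constructs in cdca7α cdca7β-3 were full-length CDCA7α (5 plants), forms lacking the C-terminus (dCter, 7) or the N-terminus (dNter, 6), the R35A_N42L (6) and C183S_C209S (7) forms, and 3 promoter constructs labelled p6966 (5), p6966_d26nt (7) and p6966_d4nt (2), with 2 sister plants lacking the full-length transgene (CDCA7_no_YFP). Those in cdca7α-2 were full-length CDCA7α (3), p6966 (5), p6966_d26nt (5) and p6966_d4nt (4). Each mutant genotype is 1 line, and the plants that carry constructs are independent T1 plants. The batches differ in plant age, in tissue taken, in pooling and in the sequencing flow cell, so these cannot be told apart. The p-values measure the spread between pools in batch A and between plants in batch B.

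Ribosomes are built from ribosomal RNAs and a fixed set of proteins, each present in a single copy apart from the acidic stalk proteins. In Arabidopsis each protein is encoded by a small family of genes, most of which are active in all tissues and most strongly in growing cells. Their transcripts are among the most abundant in a leaf, and their production and translation are known to rise and fall together with growth, under the control of the TOR kinase. Many of their promoters carry the site II element, a short sequence bound by TCP transcription factors, or the telo box, which resembles the telomere repeat.

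Promoter sequence was examined because these genes varied as 1 group. The 250 bases before each RefSeq start (assembly TAIR10.1) were searched on both strands for site II (TGGGCC or TGGGCT) and for the telo box (AAACCCTA). Site II was found in 42 of the 55 promoters (76.4%), against 19.2% of the 27443 promoters of protein-coding genes. The telo box was found in 9 of the 55 (16.4%), against 4.49% of all promoters, and both elements in 7 (12.7%), against 1.36%. Neither element was particular to the 55. Site II was found in 65.85% of the promoters of 164 other cytosolic ribosomal protein genes. Its share was 66.67% in 18 ribosome biogenesis genes and 58.33% in 12 translation elongation genes. The telo box was more frequent there than in the 55, with 21.95%, 22.22% and 25% in the same order. In 29 plastid ribosomal protein genes, site II was found in 31.03% and the telo box in 10.34%. A palindromic TGGGCCCA counts as site II on both strands, and both elements may overlap. The matches are a description of these letters and were not tested as binding sites. In the windows below, 30 bases each and written 5′ to 3′ in the direction of the gene, capitals mark the matches to either element. They were picked to show the forms in which the elements occur in genes whose levels are given further on.
AT5G07090 (S4), chr5:2202280-2202309, plus strand, 2 copies of site II on opposite strands: aaaTGGGCCtatctaaataAGCCCAataaa
AT4G00810 (P1), chr4:347323-347352, minus strand, site II followed by a telo box: atcTGGGCTtccttacatcAAACCCTActt
AT1G01100 (P1), chr1:51240-51269, minus strand, 2 copies of site II: aTGGGCCtagcgaatatttatgcGGCCCAt
AT3G09200 (P0), chr3:2825242-2825271, minus strand, a single site II: ctttactggttaaaTGGGCCtaatttgtga
AT5G39740 (L5), chr5:15903165-15903194, plus strand, 2 copies of site II: aaaGGCCCAaatataaAGCCCAttaggcct
AT5G20290 (S8), chr5:6853130-6853159, minus strand, 2 adjoining copies of site II: tcaTGGGCTtGGCCCAaaggccggctctgg
The promoter of AT2G36620 (L24) held neither element within the 250 bases, as did 10 others of the 55.

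Library totals ran between 2087906 and 4439880 counts in batch A and between 1194655 and 5206136 in batch B, and reads assigned to plastid genes took 5.55% to 43.9% and 4.39% to 22.9% of them. Leaf markers were present throughout, since the summed level of 5 photosynthesis genes (RBCS1A, RBCS3B, LHCB1.3, LHCB2.1 and PSAD1) was at least 6741 CPM (counts scaled to library size) in every library while 2 root genes (PYK10 and BGLU21) together did not pass 6.82 CPM. CDCA7α had 41 to 66 reads in cdca7α-1 and 0 to 3 reads in cdca7α-2, against 0 to 5 reads in WT of batch A. CDCA7β (0 to 2 reads) and DDM1 (0 to 5 reads) were too low in every library to check the labels of their mutants. Levels are given as CPM after TMM scaling, which evens out the composition of libraries, separately for each batch.

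Of the 55 genes, 53 passed the filter on low counts in batch A (at least 10 reads in at least 3 libraries) and 54 in batch B. AT2G42740, a gene of L11, had 0 reads in every library of both batches. AT3G53870, 1 of 3 genes of S3, averaged 0.947 CPM in batch A and 1.88 CPM in batch B. It was tested in batch B and in the joint fit of both batches given below, but not in batch A alone. For both loci the annotation holds a second, merged locus that joins the gene to its neighbour and takes the reads (19399 in batch A for the locus with AT3G53870), and how many of those reads came from AT2G42740 or AT3G53870 was not tested. AT4G00100 (S13) is affected in the same way: its own locus held 14.7% of the reads of the gene and its merged locus in batch A and 54.4% in batch B, and its values are uncertain. AT1G74060 (L6) kept 79.3% and 70.5% of such reads. Mean levels of single genes reached 248 CPM in batch A and 322 CPM in batch B. In each batch 51 of the 55 averaged at least 10 CPM.

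The 55 genes varied together from library to library. In batch A their summed level was between 1927 CPM (cdca7α-1) and 9453 CPM (cdca7β-1), a 4.91-fold range over 39 libraries. In batch B it was between 2412 and 13706 CPM, a 5.68-fold range over 82 libraries. The spread among libraries of 1 genotype was alike in the 2 batches (SD of 0.412 on the log2 scale in A and 0.479 in B), while the means of the genotypes were spread more widely in batch A (SD 0.522) than in batch B (SD 0.279). The group means differed by up to 3.00-fold in batch A and up to 2.00-fold in batch B. Groups held 2 or 3 libraries in batch A and 2 to 7 in batch B, and ddm1 genotypes were in batch A alone. The spread of means also holds the spread among libraries of 1 genotype, and its part in these values was not tested.

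**Figure D1:**
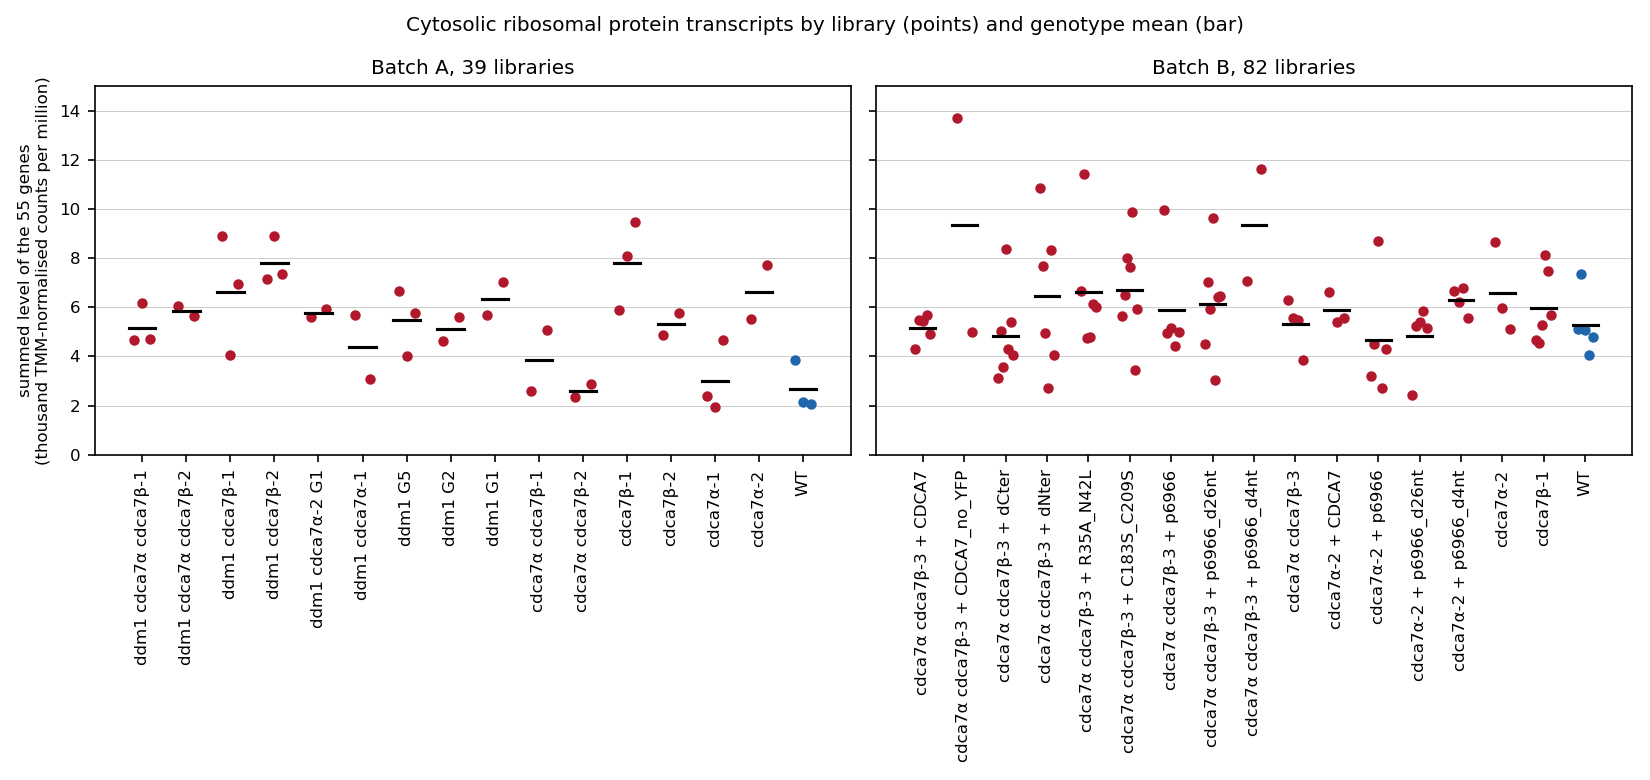
Summed level of the 55 ribosomal protein genes in 1000 TMM-scaled CPM (vertical axis) for each genotype (horizontal axis), batch A in the left panel and batch B in the right one. Each point is a library, each bar a group mean, and WT is in blue at the right of each panel. The cdca7α-2, cdca7β-1, cdca7β-2 and ddm1 libraries of batch A all lie above the 3 WT libraries of batch A, while in batch B every genotype spans the WT range in part.

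In batch A the mutants fell into groups of different level. The sum was 5502 and 7738 CPM in cdca7α-2, 5894, 8078 and 9453 CPM in cdca7β-1, and 4885 and 5753 CPM in cdca7β-2. It was 5681 and 7014 CPM in ddm1 G1, 4620 and 5583 CPM in ddm1 G2, and 6660, 4024 and 5776 CPM in ddm1 G5, against 3864, 2136 and 2054 CPM in WT. All of these mutant libraries were above all 3 WT libraries. The double mutants did not separate from WT, with 2605 and 5075 CPM in cdca7α cdca7β-1 and 2328 and 2869 CPM in cdca7α cdca7β-2, nor did cdca7α-1, with 2377, 1927 and 4669 CPM. Since leaf samples are mixtures, more cells with active ribosome production and more such transcripts per cell cannot be told apart. WT replicate 1 stood above the other 2 WT libraries in this sum, and each count below is therefore also given without single libraries where it moved.

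For each gene, the level in a mutant was set against WT with edgeR's quasi-likelihood test over all libraries of the batch, and a gene was said to rise or fall where its p, adjusted by Benjamini-Hochberg over all tested features (17943 in batch A, 17510 in batch B), was at most 0.1. All comparisons with WT in batch A share the same 3 WT libraries. In cdca7β-1, 51 of 53 tested genes rose and none fell, with a median log2 fold change of 1.57. The background was 5.81% of all tested features higher in this comparison, and the median of all features was near 0 (between −0.05 and 0.03 in every comparison). In cdca7α-2, 30 of 53 rose (background 2.02%) with a median of 1.31, and in cdca7β-2 a single gene rose (background 0.34%) although 52 of 53 values were positive, 46 had an unadjusted p under 0.05 (background 14%) and the median was 1.03. In ddm1, 48 of 53 rose in G1 (background 12.6%), 20 in G2 (background 12.6%) and 30 in G5 (background 9.44%), with medians of 1.23, 0.88 and 1.05.

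These counts depended on single libraries. Where a mutant has 2 libraries, leaving out 1 leaves a single library whose spread is assumed to be that of the other groups. In cdca7β-1 the number that rose was 31 without WT replicate 2 and between 34 and 51 without any other single library. In cdca7α-2 it was 1 without WT replicate 2, 2 without WT replicate 3, 2 without cdca7α-2 replicate 1 and 0 without cdca7α-2 replicate 2. In cdca7β-2 it was 32 without WT replicate 1 and 0 without any other single library of the comparison. In ddm1 G1 the count was 20 and 28 without WT replicates 2 and 3, and 8 without ddm1 G1 replicate 3. In ddm1 G2 it was 38, 6 and 6 without WT replicates 1, 2 and 3, 13 without ddm1 G2 replicate 1 and 3 without ddm1 G2 replicate 3. In ddm1 G5 it was 46, 10 and 11 without WT replicates 1, 2 and 3, and 13 and 18 without ddm1 G5 replicates 1 and 3. With a fit to the libraries of the 2 groups alone, in place of all 39, the counts were 0 in cdca7α-2, 1 in cdca7β-1, 0 in cdca7β-2, 10 in ddm1 G1, 0 in ddm1 G2 and 14 in ddm1 G5. The median kept its positive sign under each of these settings in all 6 comparisons. The share of all tested features called under these settings was not counted, so a loss of calls in these genes cannot be told apart from one over all features.

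**Figure D2:**
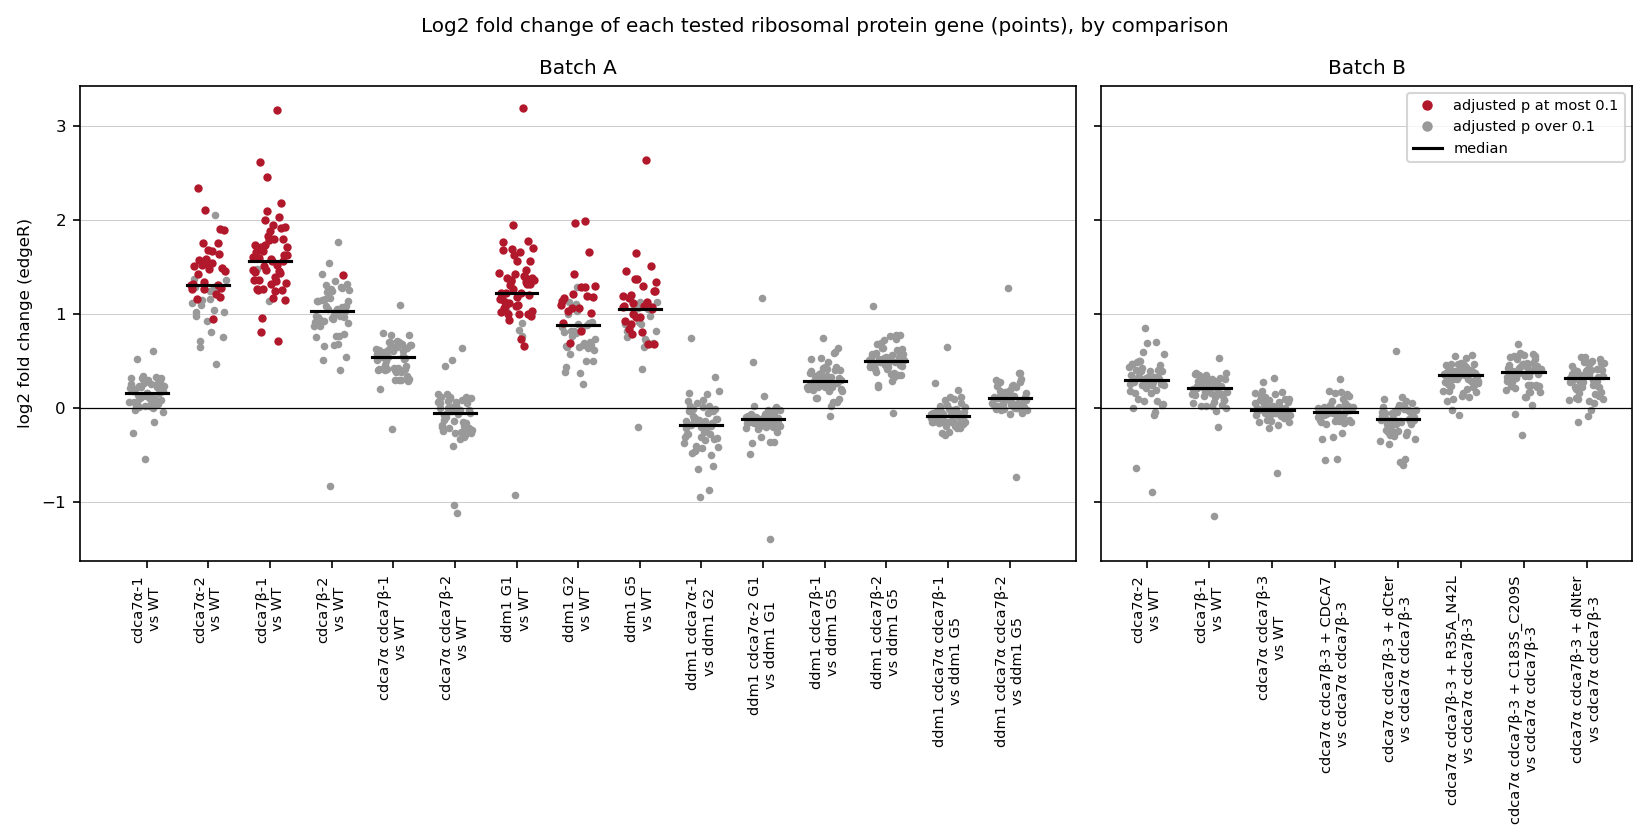
Log2 fold change (vertical axis) of each tested ribosomal protein gene in each comparison (horizontal axis), batch A on the left and batch B on the right. Red points have an adjusted p of at most 0.1, grey points do not, and bars are medians. The red points are all above 0 and all in batch A, in the comparisons of cdca7α-2, cdca7β-1, cdca7β-2 and ddm1 with WT.

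The stalk of the 60S subunit is formed by P0, which anchors it to ribosomal RNA, and by the acidic proteins P1 and P2, which recruit elongation factors. Of its 8 genes, 7 rose in cdca7β-1, 6 in cdca7α-2, 6 in ddm1 G1, 6 in ddm1 G2 and 5 in ddm1 G5, and none in cdca7β-2. The P2 gene AT2G27720 had 111 and 180.0 CPM in cdca7α-2, 135, 193 and 243 CPM in cdca7β-1 and 155 and 214 CPM in ddm1 G1, against 76.0, 53.4 and 42.1 CPM in WT. Its mutant libraries did not overlap with WT. The log2 fold changes were 1.34 in cdca7α-2 (SE 0.35, adjusted p = 0.0632), 1.73 in cdca7β-1 (SE 0.33, adjusted p = 0.00401) and 1.69 in ddm1 G1 (SE 0.35, adjusted p = 0.00107). This gene and several of those below were named for a small adjusted p, so their separation from WT follows in part from that choice. How many of all tested features separate from WT in the same way was not counted.

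The main P0 gene, AT3G09200, had 152 and 219 CPM in cdca7α-2 and 144, 214 and 237 CPM in cdca7β-1, against 101, 44.8 and 52.7 CPM in WT. The mutant values were all above WT, whose replicate 1 was about as far from the other WT libraries as from the lowest mutant library. It rose by 1.58 in cdca7β-1 on the log2 scale (SE 0.35, adjusted p = 0.0075) and by 1.48 in cdca7α-2 (SE 0.37, adjusted p = 0.0561). The P1 gene AT4G00810 had 82.2 and 104 CPM in cdca7α-2 and 87.4, 103 and 155 CPM in cdca7β-1, against 58.1, 28.4 and 33.5 CPM in WT, again without overlap, and rose by 1.21 in cdca7α-2 (adjusted p = 0.0598), 1.52 in cdca7β-1 (adjusted p = 0.00407) and 1.41 in ddm1 G1 (adjusted p = 0.00214). The other P1 genes, AT1G01100 and AT5G47700, had log2 fold changes of 1.60 (adjusted p = 0.00547) and 1.72 (adjusted p = 0.00772) in cdca7β-1. Of the 3 P0 genes, AT3G11250 gave 7.64% of the P0 reads of batch A. The lowest of them, AT2G40010, was at most 3.81 CPM in every library of batch A. Its fold change was 1.14 in cdca7β-1 (SE 0.53, adjusted p = 0.241) and −0.93 in ddm1 G1, both over the threshold.

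Of the 27 other 60S genes tested, 26 rose in cdca7β-1, 16 in cdca7α-2, 25 in ddm1 G1, 7 in ddm1 G2 and 12 in ddm1 G5. AT2G36620 (RPL24A) encodes L24, which forms a bridge between the subunits. It had 68.1 and 83.9 CPM in cdca7α-2, 73.0, 98.3 and 121.1 CPM in cdca7β-1 and 58.8 and 77.3 CPM in ddm1 G1, against 28.2, 10.0 and 14.3 CPM in WT. All 7 mutant libraries were above the highest WT library. It was among the most responsive genes, with log2 fold changes of 2.11 in cdca7α-2 (SE 0.47, adjusted p = 0.0299), 2.46 in cdca7β-1 (SE 0.44, adjusted p = 0.00324), 1.95 in ddm1 G1 (SE 0.47, adjusted p = 0.00469), 1.97 in ddm1 G2 (adjusted p = 0.00377) and 1.65 in ddm1 G5 (adjusted p = 0.0108).

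The second L24 gene, AT3G53020 (STV1, known for its part in the re-initiation of translation behind upstream reading frames), moved less. It had 125 and 145 CPM in cdca7α-2 and 148, 164 and 188 CPM in cdca7β-1, against 87.6, 61.1 and 61.3 CPM in WT. These values did not overlap either, and the log2 fold changes were 0.95 in cdca7α-2 (adjusted p = 0.0958), 1.25 in cdca7β-1 (adjusted p = 0.00547) and 0.74 in ddm1 G1 (adjusted p = 0.0754). RPL24A made up 33.8% of the L24 reads over all libraries of batch A, with the highest share in ddm1 with cdca7β-1 (39.2%) and the lowest in WT.

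L3 lies next to the catalytic centre of the ribosome. Its minor gene, AT1G61580 (RPL3B), had 15.8 and 23.8 CPM in cdca7α-2 and 19.5, 21.6 and 31.2 CPM in cdca7β-1, against 4.92, 3.16 and 3.44 CPM in WT. The mutant libraries were far above WT in these comparisons, with log2 fold changes of 2.35 (SE 0.48, adjusted p = 0.0198) in cdca7α-2 and 2.62 (SE 0.46, adjusted p = 0.00288) in cdca7β-1. In ddm1 the same gene had 9.61 and 6.09 CPM in G1, and its fold change there was 1.03 (SE 0.53, adjusted p = 0.196). It provided 6.58% of the L3 reads of batch A, between 4.61% in ddm1 G1 and 10.3% in cdca7β-1, the remainder coming from AT1G43170 (RP1).

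L5 carries the 5S ribosomal RNA into the subunit. Its gene AT5G39740 (RPL5B) had 119.7 and 174 CPM in cdca7α-2 and 119.6, 159 and 173 CPM in cdca7β-1, against 62.6, 27.3 and 28.1 CPM in WT. No mutant library was within the WT range, and it rose by 1.90 (SE 0.44, adjusted p = 0.0365) and 1.93 (SE 0.41, adjusted p = 0.00692). L10 joins the 60S subunit late in its assembly, and AT1G14320 (SAC52), which gave 98.7% of L10 reads in batch A, was the most abundant L10 gene with 274 and 386 CPM in cdca7α-2 and 280.5, 385 and 419 CPM in cdca7β-1, against 173, 123 and 102 CPM in WT. It rose by 1.32 (adjusted p = 0.0626) and 1.45 (adjusted p = 0.00737). The minor L10 gene, AT1G26910, was 1 of the 2 genes that did not pass the test in cdca7β-1 (log2 fold change 1.48, SE 0.53, adjusted p = 0.108).

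Of the 18 tested 40S genes, all 18 rose in cdca7β-1, 8 in cdca7α-2, 17 in ddm1 G1, 7 in ddm1 G2 and 13 in ddm1 G5, and the single gene that passed in cdca7β-2 was of this class. It was AT5G07090 (chr5:2202364-2204150, plus strand), 1 of 3 genes of S4, a protein of the body of the 40S subunit. It had 78.2 and 103 CPM in cdca7α-2, 77.4, 106 and 146 CPM in cdca7β-1 and 62.9 and 66.3 CPM in cdca7β-2. In ddm1 it had 76.5 and 90.0 CPM in G1, 60.5 and 93.3 CPM in G2 and 81.3, 58.7 and 67.9 CPM in G5, against 29.1, 19.2 and 24.4 CPM in WT. All 14 mutant libraries were far above the highest WT library, and WT replicate 1 did not stand apart for this gene. It was named for its adjusted p, the smallest of the tested genes in each of these comparisons, so this separation follows in part from that choice. The log2 fold changes were 1.90 in cdca7α-2 (SE 0.35, adjusted p = 0.00579), 2.18 in cdca7β-1 (SE 0.33, adjusted p = 0.00133), 1.41 in cdca7β-2 (SE 0.35, adjusted p = 0.0887), 1.78 in ddm1 G1 (SE 0.35, adjusted p = 0.000588), 1.66 in ddm1 G2 (SE 0.35, adjusted p = 0.00117) and 1.51 in ddm1 G5 (SE 0.32, adjusted p = 0.00142). It held 32.9% of the S4 reads in ddm1 G2 and 18.98% in cdca7α-1.

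S8 and S15 are core proteins of the 40S subunit. AT5G20290 (S8) had 226 and 343 CPM in cdca7α-2 and 264, 352 and 426 CPM in cdca7β-1, against 159.8, 108 and 85.1 CPM in WT, and rose by 1.27 (adjusted p = 0.085) and 1.56 (adjusted p = 0.00687). AT1G04270 (S15) rose by 1.27 in cdca7α-2 (adjusted p = 0.0716) and 1.47 in cdca7β-1 (adjusted p = 0.0071). S18 showed how members of 1 family differed in size of change. AT1G22780 (PFL, named for the pointed first leaves of its mutant) had 52.2, 88.6 and 109 CPM in cdca7β-1, against 42.5, 21.8 and 14.04 CPM in WT (log2 fold change 1.66, SE 0.39, adjusted p = 0.0108). AT4G09800 (RPS18C), which encodes a protein of the same family, had 118, 145 and 160.0 CPM in cdca7β-1, against 108, 85.8 and 63.0 CPM in WT, the smallest change of any gene that rose there (0.72, SE 0.24, adjusted p = 0.0747). RPS18C made up 49.7% of S18 reads over all libraries of batch A and 58.7% in WT, and PFL 25.8% over all libraries and 17.9% in WT.

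The S13 gene AT4G00100 (RPS13A) had the largest fold change of the 53 in cdca7β-1 and ddm1 G1, with 21.4, 47.3 and 55.6 CPM in cdca7β-1 and 40.3 and 44.0 CPM in ddm1 G1, against 4.25, 8.32 and 1.15 CPM in WT. These groups did not overlap, and the log2 fold changes were 3.17 (SE 0.73, adjusted p = 0.0103) and 3.20 (SE 0.78, adjusted p = 0.00485). The share of reads that fell on its own locus and not on the merged locus differed between libraries, from 1.70% to 28.3% in batch A, and its part in this fold change was not tested. With reads of merged loci assigned to the genes, the counts of genes that rose moved by no more than 1.5 times except in cdca7β-2, where 2 rose.

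**Figure D3:**
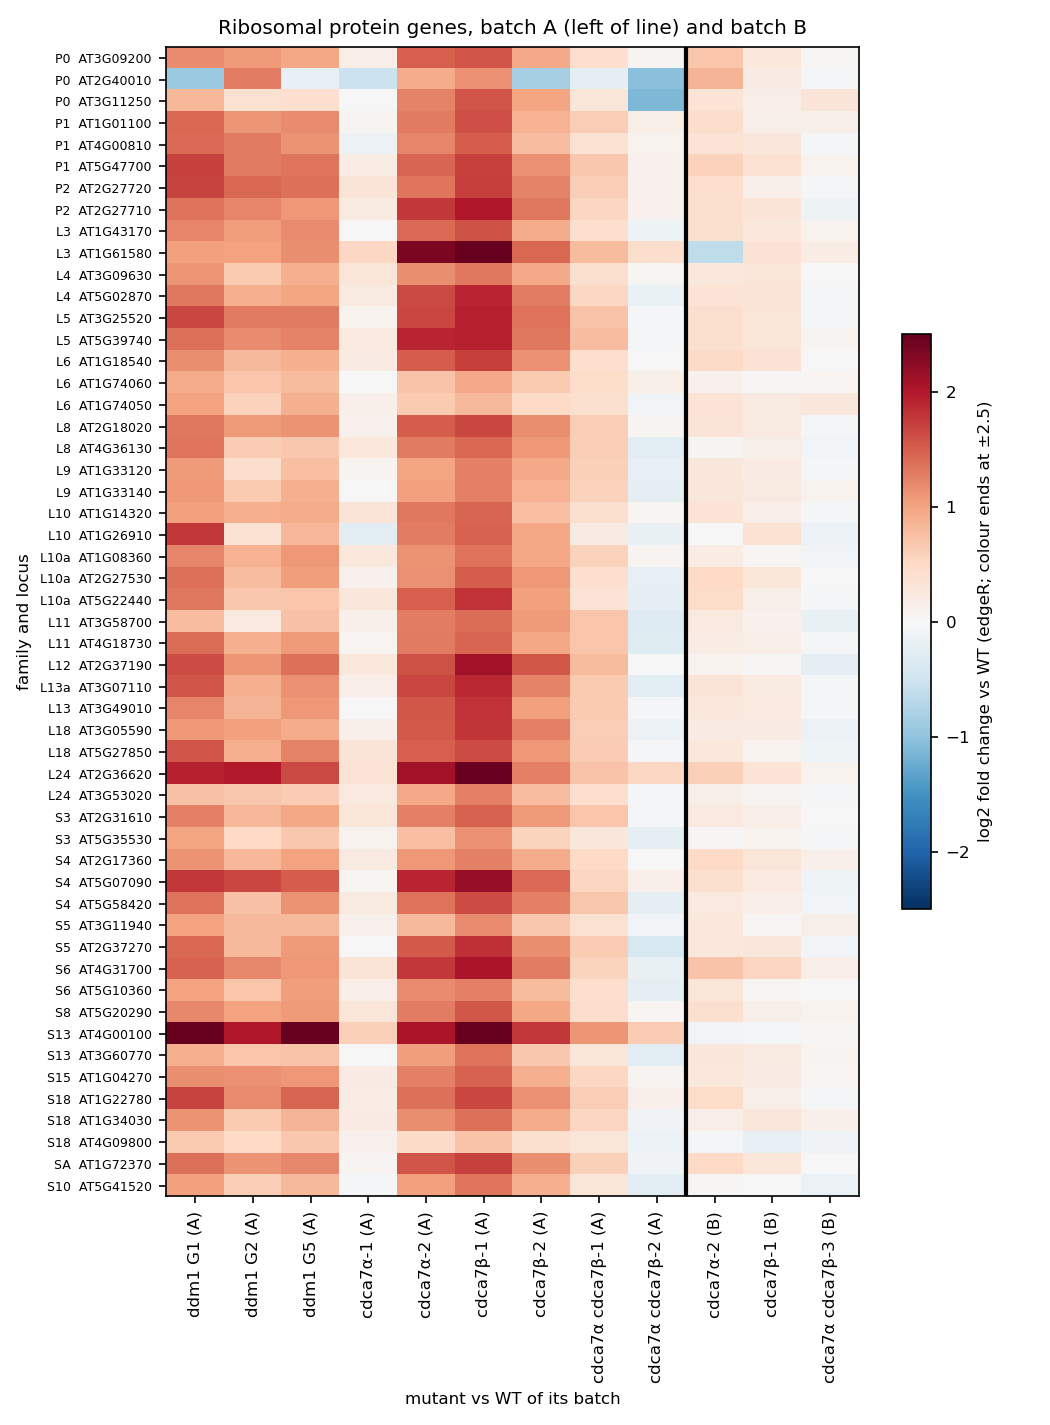
Log2 fold change against WT (colour, red for higher in the mutant) of 53 ribosomal protein genes (rows, by subunit) in the 9 genotypes of batch A and the 3 of batch B that were compared with WT (columns). The columns of cdca7α-2, cdca7β-1, cdca7β-2 and ddm1 are red almost throughout, while cdca7α-1, the double mutants and the columns of batch B are pale.

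The double mutants and cdca7α-1 gave no call. In cdca7α cdca7β-1, 52 of 53 fold changes were positive with a median of 0.54, but 0 passed the edgeR test, 0 had an unadjusted p under 0.05 and 0 passed in DESeq2. The background was 1.41% of features called in either direction and 4.6% with an unadjusted p under 0.05. In cdca7α cdca7β-2 the median was −0.05, 19 of 53 were positive, and the same 3 counts were 0 (background 1.43% and 6.1%). In cdca7α-1 the median was 0.16, and the 3 counts were again 0 (background 0.039% and 2.4%). For AT5G07090 the levels were 22.8 and 47.0 CPM in cdca7α cdca7β-1 and 21.6 and 30.8 CPM in cdca7α cdca7β-2, against the WT values given above, and both groups overlapped with WT. The median of cdca7α cdca7β-1 rested on single libraries and was −0.02 without its replicate 3, 0.95 without its replicate 2 and 0.96 without WT replicate 1. That of cdca7α cdca7β-2 was 0.38 without WT replicate 1, and that of cdca7α-1 was −0.38 without its replicate 3. Differences between single and double mutants were not tested.

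The combinations of ddm1 with cdca7 alleles gave no call against ddm1 alone. Against ddm1 G5, from which these combinations also differ by a generation, so that allele and generation cannot be told apart, the median log2 fold change was 0.28 with cdca7β-1 (background 0.00557% called, 3.96% with an unadjusted p under 0.05), 0.51 with cdca7β-2 (0.0111% and 6%), −0.09 with cdca7α cdca7β-1 (0.0167% and 2.13%) and 0.10 with cdca7α cdca7β-2 (0.0111% and 3%). It was −0.18 in ddm1 cdca7α-1 against ddm1 G2 (0.00557% and 11.9%) and −0.12 in ddm1 cdca7α-2 against ddm1 G1 (0% and 3.78%). The median of ddm1 cdca7α-1 was −0.80 without its replicate 1. No gene passed in any of these 6 comparisons with edgeR or with DESeq2. The genes with an unadjusted p under 0.05 in edgeR were AT4G36130 and AT1G26910 in ddm1 with cdca7β-2 (0.73 and 1.08), AT2G40010 in ddm1 with cdca7α cdca7β-2 (1.28) and AT4G00810 in ddm1 cdca7α-1 (−0.87), and 0 in the other 3. The sum was 7144, 8907 and 7341 CPM in ddm1 with cdca7β-2, all above the 6660, 4024 and 5776 CPM of ddm1 G5, to which they were compared.

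In batch B the same lines gave no call against WT. AT5G07090 had 140.3, 84.2 and 72.8 CPM in cdca7α-2 and 99.4, 69.4, 67.7 and 43.5 CPM in cdca7α cdca7β-3, against 74.8, 125, 64.3, 59.6 and 51.5 CPM in WT. In the 6 cdca7β-1 plants of batch B its lowest, median and highest values were 62.4, 73.3 and 141 CPM. All 3 mutants overlapped with WT, with log2 fold changes of 0.40 in cdca7α-2 (SE 0.45, adjusted p = 0.869), 0.24 in cdca7β-1 and −0.10 in cdca7α cdca7β-3. AT2G36620 had 119, 67.4 and 68.4 CPM in cdca7α-2, against 53.3, 94.9, 40.8, 34.5 and 57.2 CPM in WT, and AT3G09200 had 372, 232 and 205 CPM, against 146, 253, 168, 129.7 and 136 CPM in WT. Their groups overlapped as well. For AT1G61580, which had the largest fold change in cdca7α-2 of batch A, the values in cdca7α-2 were 15.3, 7.28 and 5.65 CPM, against 16.5, 25.1, 10.5, 9.37 and 11.5 CPM in WT.

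Across the 54 genes tested in batch B, the median log2 fold change was 0.30 in cdca7α-2, where 50 were positive, 0.21 in cdca7β-1, where 50 were positive, and −0.02 in cdca7α cdca7β-3, where 23 were positive. None passed in edgeR or in DESeq2. The number with an unadjusted p under 0.05 in edgeR was 0 in cdca7α-2 (background 0.314% called and 9.45% with an unadjusted p under 0.05), 1 in cdca7β-1 (0.0457% and 2.74%) and 0 in cdca7α cdca7β-3 (1.44% and 4.99%). The 1 gene was AT3G53870, with a negative log2 fold change of −1.15. The sums of the 55 genes were 6578 ± 1855 CPM in cdca7α-2 (SD, n = 3), 5960 ± 1494 CPM in cdca7β-1 (n = 6) and 5300 ± 1029 CPM in cdca7α cdca7β-3 (n = 4), against 5282 ± 1223 CPM in WT (n = 5). In batch A the WT mean was 2685 ± 1022 CPM (n = 3), on a table scaled apart from that of batch B.

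The constructs were compared with the untransformed double mutant cdca7α cdca7β-3, whose 4 libraries all 5 comparisons share. The median log2 fold change was −0.04 with full-length CDCA7α (background 0.977% called and 6.42% with an unadjusted p under 0.05) and −0.11 with a form lacking the C-terminus (0.263% and 8.4%). It was 0.35 with the R35A_N42L form (0% and 2.84%), 0.38 with the C183S_C209S zinc finger form (0% and 7.34%) and 0.31 with a form lacking the N-terminus (0% and 6.62%), from which the study saw no expression. In these comparisons 0 of 54 genes passed in edgeR, 0 had an unadjusted p under 0.05 and 0 passed in DESeq2. Single T1 plants of 1 construct differed widely, between 2711 and 10858 CPM in the sum of the 55 genes among the 6 plants of the form lacking the N-terminus and between 3438 and 9867 CPM among the 7 plants of the zinc finger form, against 3862 to 6303 CPM in cdca7α cdca7β-3. Sister plants lacking the full-length transgene had 13706 and 5010 CPM, so that the highest value of batch B came from a plant without a construct. In cdca7α-2 the group means with constructs were between 4680 ± 2363 CPM (SD, n = 5) and 6294 ± 557 CPM (n = 4), against 6578 CPM in cdca7α-2 itself, and were not tested.

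Whether a shift differed between the batches was tested as the difference of the 2 fold changes, batch A minus batch B, in a joint fit over the libraries of both batches and 19063 features. For cdca7β-1 the difference was positive for all 54 genes, with a median of 1.301, and 51 had an unadjusted p under 0.05 (background 8.71%), but 0 passed after adjustment in edgeR (background 0.0472%). For cdca7α-2 the median difference was 0.97, 8 had an unadjusted p under 0.05 (background 7.48%) and 0 passed (background 0.0105%). For cdca7α cdca7β-1 in A against cdca7α cdca7β-3 in B the median was 0.51, 0 had an unadjusted p under 0.05 (background 2.94%) and 0 passed (background 0%). DESeq2 was not run for these differences. Of single genes in cdca7β-1, AT4G00100 differed by 3.15 (SE 0.86, adjusted p = 0.245), AT2G36620 by 2.08 (SE 0.71, adjusted p = 0.333), AT5G07090 by 1.90 (SE 0.59, adjusted p = 0.302) and AT2G27720 by 1.56 (SE 0.47, adjusted p = 0.300) in edgeR. In cdca7α-2, AT1G61580 differed by 2.94 (SE 0.81, adjusted p = 0.449 in edgeR).

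Gene by gene, the estimated fold changes of cdca7α-2 and cdca7β-1 were larger in batch A than in batch B and mostly of the same sign. No single gene passed the test of this difference. Of 53 genes tested in both batches, all 53 had the larger value in batch A for cdca7α-2 and for cdca7β-1, and 50 were positive in both batches in each of these lines. For the double mutants 23 were positive in both, 1 negative in both and 29 of opposite sign. The order of the genes was not the same, with Spearman's rho of 0.238 in cdca7α-2, 0.425 in cdca7β-1 and −0.06 in the double mutants over the 53 genes. Genes are not independent replicates, and the values of all genes in a batch rest on the same few libraries.

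**Figure D4:**
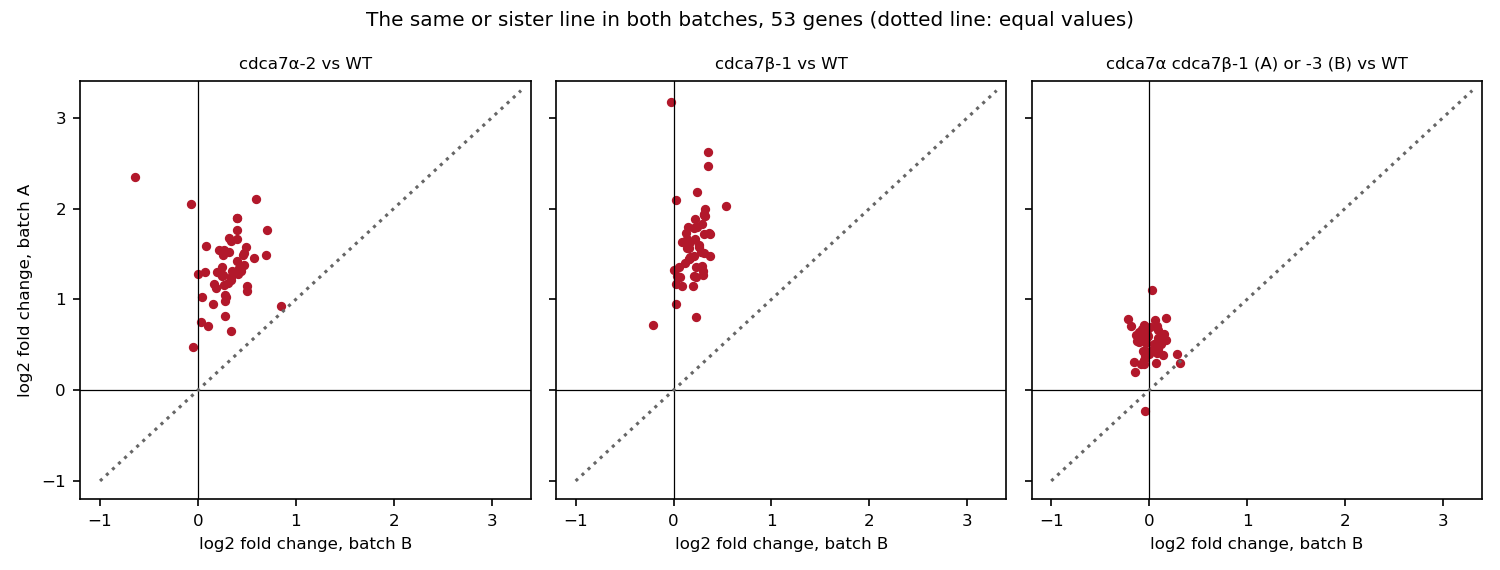
Log2 fold change against WT in batch A (vertical axis) and in batch B (horizontal axis) for 53 ribosomal protein genes, 1 panel each for cdca7α-2, cdca7β-1 and the double mutants (cdca7α cdca7β-1 in batch A, cdca7α cdca7β-3 in batch B). Dotted lines mark equal values. All 53 points lie above the line in the first 2 panels, with medians of 1.31 in batch A against 0.31 in batch B and 1.57 against 0.21.

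Within each batch the genes rose and fell as 1 group from library to library, also among libraries of the same genotype. Over the 51 genes of at least 10 CPM, the correlation of a gene's log2 level with that of the sum of the others had a median of 0.976 in batch A (n = 39 libraries) and 0.939 in batch B (n = 82), and was over 0.9 for 46 and 39 of the genes. Within genotypes the medians were 0.956 and 0.945. AT1G61580 followed the others least in both batches (0.793 and 0.620). The sum of the 55 genes and that of 164 other cytosolic ribosomal protein genes had a correlation of 0.999 in batch A and 0.997 in batch B (Spearman's rho 0.994 and 0.995), and 0.999 and 0.996 without the 2 most distant libraries. All these values share the scaling of the libraries.

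How steeply a gene followed the group differed between genes. For each gene, the slope of its log2 level on that of the others was taken among batch B libraries of the same genotype, which involves no mutant comparison. The slopes so taken in batch A and in batch B had a Pearson's r of 0.755 (Spearman's rho 0.733) over 51 genes. RPL24A had a slope of 1.47 and STV1 of 0.70 in batch B, and PFL 1.17 and RPS18C 0.48. In these pairs, the gene that changed more in cdca7β-1 of batch A was also the more variable one among like plants of batch B. It was the other way in L3, where RPL3B changed more than RP1 but had a slope of 0.93 against 1.04. Pairs of other families were not counted. Over the 51 genes, the slope in batch B and the log2 fold change in batch A had a Pearson's r of 0.774 for cdca7β-1 and 0.827 for cdca7α-2 (Spearman's rho 0.838 and 0.858). The 51 genes share the same libraries and are not independent. For ddm1 G1 the values were 0.688 and 0.779.

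**Figure D5:**
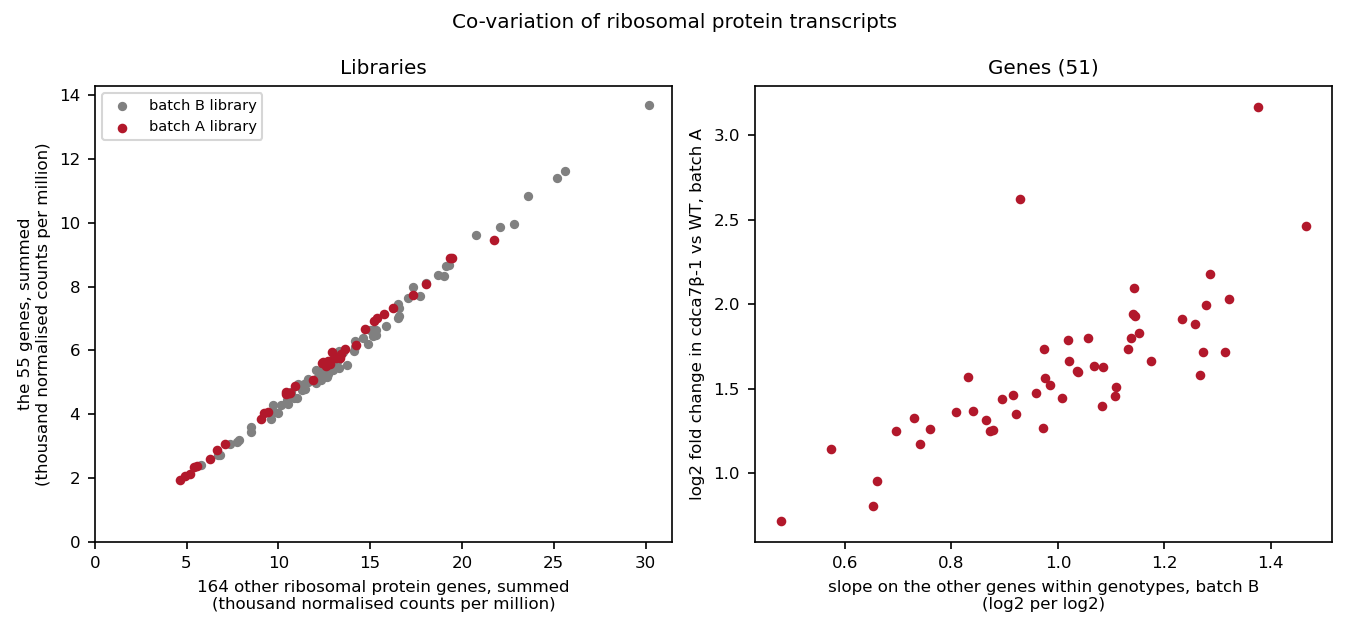
Left: summed level of the 55 genes against that of 164 other cytosolic ribosomal protein genes, both in 1000 TMM-scaled CPM, 1 point per library (batch A red, batch B grey). Right: for 51 genes, the slope on the others among batch B libraries of the same genotype (horizontal axis) and the log2 fold change in cdca7β-1 of batch A (vertical axis). The libraries of both batches lie along 1 line on the left, and genes with steeper slopes have larger fold changes on the right (r = 0.774).

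Other genes of the translation machinery were counted in the same comparisons. Of 148 tested genes among the 164 other cytosolic ribosomal protein genes, 134 rose in cdca7β-1 (median 1.46), 66 in cdca7α-2 (1.23), 1 in cdca7β-2 (0.93), 102 in ddm1 G1 (1.104), 53 in ddm1 G2 (0.82) and 67 in ddm1 G5 (0.90), and none fell. Of 17 tested ribosome biogenesis genes, 6 rose in cdca7β-1, among them AT1G48920 (NUC-L1, the nucleolin that acts on ribosomal RNA genes, log2 fold change 1.68), AT4G25630 (FIB2, a fibrillarin of the nucleolus, 3.75) and AT1G56110 (NOP56, 2.23). In cdca7α-2, 2 rose, NUC-L1 (1.43) and AT5G27120 (2.63), and none did in ddm1. Of 12 translation elongation genes, 4 rose in cdca7β-1, among them AT5G60390, which encodes elongation factor EF-1α (1.58), and AT1G56070 (LOS1, elongation factor EF-2, 0.97). AT5G60390 also rose in cdca7α-2 (1.40) and in ddm1 G1 (1.32), G2 (1.23) and G5 (1.03), and AT3G16640 (TCTP) fell by 0.90 in ddm1 G1 and by 0.75 in ddm1 G2.

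Plastid ribosomal protein genes, which serve the separate ribosomes of the chloroplast, were distributed in another way. Of 28 tested, 0 rose in cdca7α-2 (median 0.34) and 16 in cdca7β-1 (0.86), against 27 in ddm1 G1 (1.34), 28 in ddm1 G2 (1.32) and 17 in ddm1 G5 (0.81). Of 8 genes of the TOR pathway none rose, and AT3G08850 (RAPTOR1, a TOR partner) fell by 0.59 in ddm1 G1 and by 0.56 in ddm1 G5, with AT3G08720 (S6K2, a kinase of the ribosomal protein S6) falling by 1.64 in ddm1 G1. Over the 39 libraries of batch A, the summed level of the 8 TOR genes had a correlation of −0.75 with that of the 55 genes, and −0.38 over the 82 libraries of batch B. These are descriptions across libraries that share depth and scaling.

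Cell type markers moved in some of the same comparisons. The 4 tested markers of dividing cells all rose in ddm1 G1, among them AT1G07370 (PCNA1, log2 fold change 3.44) and AT1G08560 (KNOLLE, 4.07), and all 4 in ddm1 G2 and in ddm1 G5, while 0 passed in cdca7α-2 and 0 in cdca7β-1. The summed level of all 6 markers was between 6.76 and 25.8 CPM in the 7 ddm1 libraries, against 1.72 to 3.44 CPM in WT. Of the 5 leaf markers, AT1G67090 (RBCS1A, the small subunit of Rubisco) also rose in ddm1 G1, G2 and G5 (2.18, 2.23 and 1.45). AT5G38410 (RBCS3B) rose in G1 and G2 (1.66 and 1.95), and no other leaf marker passed in ddm1. Of 4 markers of senescing leaves, AT4G35770 (SEN1) and AT5G39610 (ORE1) fell in cdca7β-1 by 2.12 and 1.47, while the other 2 had positive values that did not pass (median of the 4, −0.52). In cdca7α-2 none passed, and 2 of 4 were positive (median −0.04). ORE1 also fell in cdca7β-2 (by 2.06) and in ddm1 G1, G2 and G5 (by 2.84, 2.56 and 1.96). Their summed level was 369 and 659.5 CPM in cdca7α-2 and 625, 1059 and 225 CPM in cdca7β-1, against 1563, 5046 and 1228 CPM in WT. Of the 4 flower markers 1 was tested, and it passed in no comparison. In batch B none of these lists had a member that passed, apart from the senescence protease gene AT5G45890 (SAG12), which was higher with the form lacking the C-terminus than in cdca7α cdca7β-3 (8.83). The sum of the senescence markers was 1708 CPM in replicate 5 of that form and at most 307 CPM in its other plants. In cdca7α cdca7β-3 it was 73.4 to 414 CPM. How far the fold change of SAG12 rests on that 1 plant was not tested. The part of dividing or senescing cells in the change of the ribosomal protein genes was not tested.

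Reads of plastid genes were a further difference between libraries. In batch A they took over 25% of the counts in 5 libraries, among them WT replicate 3 and ddm1 G1 replicate 2. Without these 5 libraries, which leaves 1 library of ddm1 G1 with its spread taken from the other groups, the medians of the ribosomal protein genes were 1.11 in cdca7α-2, 1.35 in cdca7β-1, 1.21 in ddm1 G1, 0.74 in ddm1 G2 and 0.87 in ddm1 G5, while the numbers that rose were 0, 17, 11, 4 and 4. The share of all features called without these libraries was not counted. Over the 39 libraries the share of plastid reads and the sum of the 55 genes had a correlation of −0.22 (Spearman's rho −0.12), and of −0.355 within genotypes. Over the 82 libraries of batch B it was −0.382 (Spearman's rho −0.382), and −0.389 within genotypes.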

How the data were processed

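Sense-strand counts per transcript were used as deposited. They are expected counts, which the authors estimated with Salmon 1.10.1 after alignment with STAR 2.7.11a to TAIR10, collapse of duplicate molecular identifiers and assignment to the AtRTD3 transcript annotation (5.39% of the values in batch A and 6.26% in batch B were not whole). The deposited RPM tables were not used. Transcripts were summed per locus and rounded to whole counts. Each batch was fitted in edgeR 4.0.16 (R 4.3.3) with TMM factors, features of at least 10 reads in at least 3 libraries, 1 coefficient per genotype and the quasi-likelihood test. p-values were adjusted by Benjamini-Hochberg over all tested features, with a threshold of 0.1. Total counts per library, given in the report, limit the precision of low genes.

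The 55 genes, the comparison lists (other cytosolic ribosomal protein genes, ribosome biogenesis, translation elongation, TOR pathway, plastid ribosomal protein genes, and markers of leaf, dividing cells, senescing leaf, flower and root) and the tests were chosen with earlier results of these data known. Neither of the 2 root genes passed the filter. Named genes were those that passed in a comparison, or the 5 with the smallest adjusted p where more passed, together with the extremes of the double mutants and of ddm1 G5, the highest and lowest genes of each class, and paralogues of all these.

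Alternatives were DESeq2 1.42.0, RLE factors, no filter, an adjusted p of 0.05, a fold change of at least 2, families summed, organelle transcripts left out, a fit to 2 groups alone, a replicate block and leaving out single libraries. After seeing the data, leaving out libraries with over 25% plastid counts, the plastid share as a covariate and the addition of merged loci were added. Same-numbered libraries were checked for deviating together. All their correlations were positive for cdca7α cdca7β-3 and WT of batch B (0.136 to 0.607 over 4 pairs). There the fit with the replicate block gave 0 genes, as did the fit without it. They were also all positive against WT for ddm1 G1 (0.082 and 0.055), G2 (0.229 and 0.457) and G5 (0.305, 0.256 and 0.001). The same held for the form lacking the C-terminus against cdca7α cdca7β-3 (0.148, 0.102 and 0.021). The single pair of ddm1 cdca7α-1 with ddm1 G2 had 0.099. Libraries of unlike number reached similar values, while other such pairs were negative. In batch A, cdca7α-1 replicate 3 and WT replicate 1 had 0.567, and in batch B, cdca7β-1 replicate 6 and WT replicate 5 had 0.513. In a group of 2 the deviations mirror each other, so the values for ddm1 G1 or G2 are not independent checks. The main fits used no pairing. Promoters were taken from RefSeq (TAIR10.1), which held all 55 genes. The code was tested on simulated data.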

Additional observations from a re-analysis of the deposited data

Results flagged for a closer look

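In 4 construct groups of batch B a single plant stood apart in the summed level of the 55 genes by Dixon's test at the 95% level, which by chance marks about 1 group in 20. The test was run on CPM and not on the log2 scale. The highest plant had 8353 CPM with the form lacking the C-terminus. Its gap to the next was 0.568 of the range, which was at the limit of the test. The highest plant of the R35A_N42L form had 11419.8 CPM (0.714), and that of the alternative promoter construct in cdca7α cdca7β-3 had 9972 CPM (0.87). The lowest plant had 2412 CPM with that promoter carrying the d26nt deletion in cdca7α-2 (0.793). Other loci of the annotation join a ribosomal protein gene to its neighbour and were outside the comparisons. The locus AT4G00090-AT4G00100 held 16560 reads in batch A and 19240 in batch B, and AT3G53870-AT3G53880 held 19399 and 46549. The locus AT2G42740-AT2G42750 held 1234 and 1720 reads, and AT1G74060-AT1G74070 held 2531 and 6993.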

How the results depend on the processing

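The share of all features called was not counted under the alternative settings. The number of genes that rose against WT in batch A moved by over 1.5 times under these settings, and where no cause is named it was not tested. With families summed, where by construction 27 families take the place of 53 genes, it was 17 of 27 in cdca7α-2, 27 in cdca7β-1, 0 in cdca7β-2, 27 in ddm1 G1 and 11 in ddm1 G2. With libraries of over 25% plastid counts left out it was 0, 17, 0, 11, 4 and 4 in cdca7α-2, cdca7β-1, cdca7β-2, ddm1 G1, G2 and G5. With a fit to 2 groups alone, where fewer libraries estimate the spread, it was 0, 1, 0, 10, 0 and 14 in the same order. At an adjusted p of 0.05 it was 4 in cdca7α-2, 0 in cdca7β-2 and 8 in ddm1 G2. In cdca7β-2 it was also 5 in DESeq2, 2 with merged loci added and 25 with no filter on low counts, and ddm1 cdca7α-2 against ddm1 G1 gave 1 with no filter. Leaving out 1 library gave 0 to 43 in cdca7α-2, 31 to 51 in cdca7β-1, 0 to 32 in cdca7β-2, 8 to 49 in ddm1 G1, 3 to 38 in ddm1 G2, 10 to 46 in ddm1 G5, and 0 in each of the other comparisons within a batch. In batch B this covers libraries of groups of up to 5, and it was not run for the differences between batches. RLE factors, organelle transcripts left out, a fold change of at least 2, the plastid covariate and the replicate block moved no count by over 1.5 times. The fit with the replicate block gave 38 in cdca7α-2, 51 in cdca7β-1 and 1 in cdca7β-2, where not every same-numbered pair deviated together. It gave 47 in ddm1 G1, 18 in ddm1 G2 and 36 in ddm1 G5, where all same-numbered correlations were positive. A crossed replicate block gave 0 in ddm1 cdca7α-2. Of 472 settings over 29 values of named genes, 422 kept direction and side of the threshold, 49 kept direction alone and 1 was reversed: AT2G40010 in ddm1 G5 was −0.20, and between −0.52 and 0.22 without a single library.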
